A study of Mus musculus with 4 samples.

Results

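A set of 40 mouse genes that mark microglia or encode complement proteins was followed in the hippocampus of mice that drank fluoxetine or plain water. Members were chosen by gene symbol, and a member was read by every probeset whose platform annotation gave that symbol alone. A probeset is the group of short oligonucleotide probes that together measure 1 transcript. The rule found 61 probesets for 38 of the 40 members, out of 45101 probesets and 18194 singly named genes on the array. The probeset of C4b was shared with C4a and was not used, and C3 was not analysed here. By role, 3 of the 38 are complement subunits, 16 belong to immune receptors and their signalling, 5 to the phagocyte lysosome and killing, and 14 are genes of resting, or homeostatic, microglia.

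The study measured RNA from both hippocampi of male DBA/2J mice, an inbred strain, on 4 Affymetrix Mouse Genome 430 2.0 arrays. The control mice received drinking water without drug (0 mg/kg/day) and the treated mice received fluoxetine, a selective serotonin reuptake inhibitor, at 18 mg/kg/day, both for 21 days, with ages labelled as 8 to 10 weeks. Each treatment had 12 mice, and RNA from 6 mice was combined into each of its 2 pools, with 1 array per pool. The 2 pools per group carry the only replication, so errors describe the spread between pools and not between single mice.

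Microglia are the resident macrophages of the brain. They depend on signalling through the colony stimulating factor receptor Csf1r, survey the tissue through receptors such as Cx3cr1 and P2ry12, and engulf debris and synapses. C1q, the recognition molecule of the classical complement pathway, is made in the brain mainly by microglia. Tyrobp, also called DAP12, is the adaptor through which Trem2 and related receptors signal.

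Intensities are on the linear scale of the deposited GCRMA values, where the submitters took 100 as the minimum for expression. Median intensities were 22.6 to 23.3 per array, and 16651 to 16905 probesets per array reached 100. The array has 18 Affymetrix hybridization spike-in probesets, which read RNA added to the hybridization mix. All 18 were brighter in both fluoxetine arrays than in both control arrays, by a median log2 difference of 0.36 (range 0.17 to 0.55). Their part in the results was not tested, and member values centred on them are given wherever a direction or call differs. Centring on their mean lowers every log2 difference by 0.33 and takes the median of all tested genes from -0.03 to -0.36, so a difference between 0 and 0.33, in the lists named later too, turns negative with it.

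Testing was limited to probesets at 100 or more in 2 or more of the 4 arrays, and a gene is represented by its brightest tested probeset. A call means an adjusted p under 0.05 in limma, adjusted by Benjamini-Hochberg across the 16938 probesets tested. Of the 38 annotated members, 20 were tested and 18 were too dim. Whole hippocampus contains far more than microglia, and a change in the number of cells of 1 type and a change in RNA per cell cannot be told apart in these data. Csf1r, Cx3cr1 and P2ry12 were above 100 in all 4 arrays, whereas Tmem119, Siglech, Fcrls and Trem2, which also mark microglia, were under 100 in all 4.

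In fluoxetine-treated hippocampus, 8 of the 20 tested members were called higher, where 1.31% of all 9030 tested genes were. They are the complement subunits C1qa and C1qb, the receptor and signalling genes Tyrobp, Blnk, Cd53 and Fcgr3, and the phagocyte genes Ctss and Mpeg1. None of the 20 was called lower, against 0.554% of all tested genes, and 0 members were lower at an unadjusted p under 0.05. Centring on the spike-ins instead gave 8 higher and 1 lower. That fit called 5891 of the 9030 tested genes in either direction, against 168 without the centring. The fluoxetine arrays both lay above both control arrays for 18 of 20 tested members, against 23.6% of all tested genes. Unadjusted p was under 0.05 for 15 members in the higher direction, against 9.37%. The submitters' rule of a 2-fold difference was met by 3 members, Blnk, C1qb and Ly86, against 0.797%. The median log2 fold change of the tested members was 0.58 (range -0.06 to 2.26), beside -0.03 over all tested genes.

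These calls rest on 4 arrays. Leaving out any 1 array ended all 8 calls, with limma adjusted p between 0.0812 and 0.198, while the 8 log2 fold changes stayed at 0.56 or above. Over all tested genes 0 were called in each of these fits. A lower intensity minimum of 50, which admits more probesets to the adjustment, gave the 8 genes adjusted p of 0.0519 to 0.0694 in limma and no call.

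**Figure D1:**
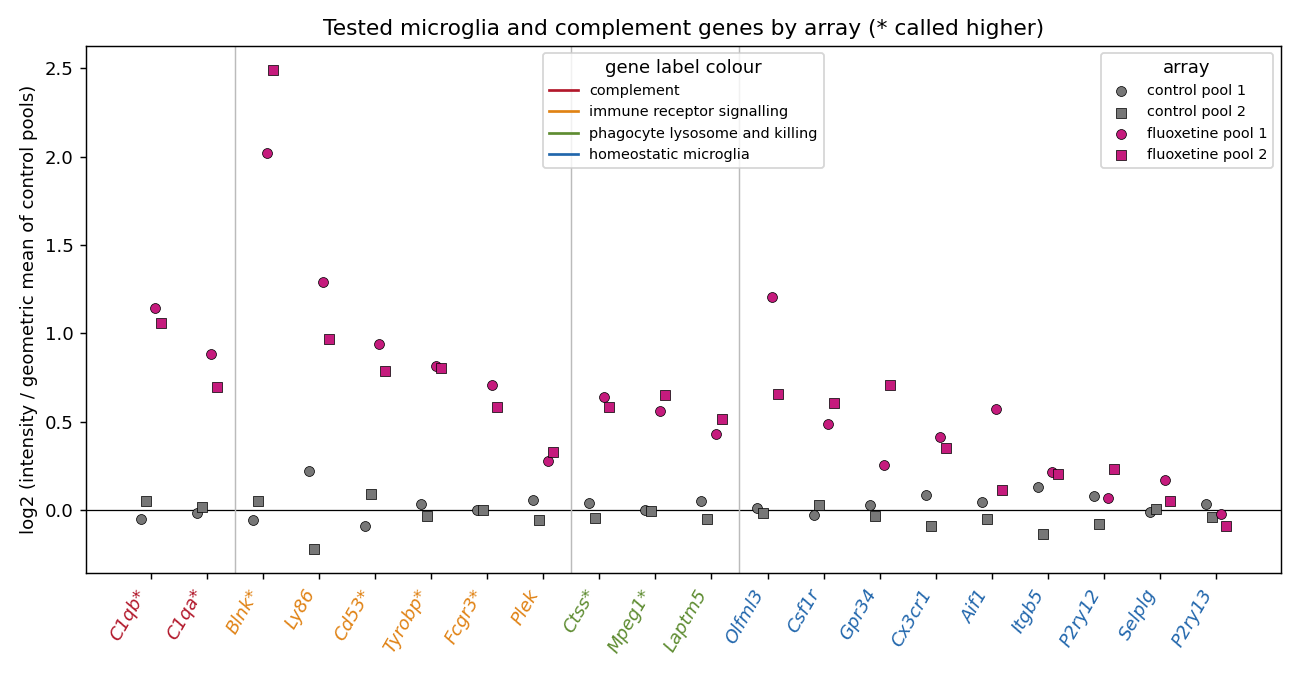
Intensity of each of the 20 tested members in each array, as log2 of its ratio to the geometric mean of the control pools (vertical axis), with genes on the horizontal axis ordered by role and by fold change. Circles are pool 1 and squares pool 2, grey for control and magenta for fluoxetine, and an asterisk marks the 8 genes called higher. Fluoxetine pools lie above both control pools for 18 of the 20 genes, the exceptions being P2ry12 and P2ry13.

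Member promoters were read from RefSeq (GRCm38.p6, the C57BL/6J reference strain), in windows of 300 bases that run from 250 before to 50 after the annotated start. The sequence GAGGAAG, the core of the motif bound by the myeloid transcription factor PU.1, was searched on both strands. It was present in 11 of the 30 members with a promoter in the table (36.7%) and in 4152 of 27025 genes (15.4%). Of the 15 tested members with a promoter, 5 held it (33.3%). Members without a call that held it include P2ry13, Trem2 and Itgam, and called members without it are Blnk, C1qb and Mpeg1. Of the 6 called members with a promoter, 3 held it. Those 3 are printed 5′ to 3′ on the gene's own strand up to 30 bases after the start, and all hold the reverse complement CTTCCTC, shown in capitals. The Cd53 window is chr3:106790120-106790399 on the minus strand, the Ctss window chr3:95526536-95526815 on the plus strand and the Fcgr3 window chr1:171059365-171059644 on the minus strand. C1qb, at chr4:136886171-136886450 on the minus strand, is shown as a called member without the sequence. The match begins at base 8 in Cd53, counting the start as base 1, at base -1 in Ctss and at base -16 in Fcgr3. A match is a description of the letters and shows no binding.
Cd53: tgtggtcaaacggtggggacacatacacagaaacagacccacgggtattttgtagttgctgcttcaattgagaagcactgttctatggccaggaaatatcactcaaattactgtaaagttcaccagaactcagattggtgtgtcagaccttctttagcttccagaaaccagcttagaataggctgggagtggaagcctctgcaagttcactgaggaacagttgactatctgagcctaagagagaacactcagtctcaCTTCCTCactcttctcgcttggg
Ctss: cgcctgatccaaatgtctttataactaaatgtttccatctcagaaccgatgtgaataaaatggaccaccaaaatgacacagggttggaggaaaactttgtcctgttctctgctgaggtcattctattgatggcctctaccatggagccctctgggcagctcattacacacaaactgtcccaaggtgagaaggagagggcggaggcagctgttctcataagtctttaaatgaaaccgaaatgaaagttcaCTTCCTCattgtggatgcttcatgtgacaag
Fcgr3: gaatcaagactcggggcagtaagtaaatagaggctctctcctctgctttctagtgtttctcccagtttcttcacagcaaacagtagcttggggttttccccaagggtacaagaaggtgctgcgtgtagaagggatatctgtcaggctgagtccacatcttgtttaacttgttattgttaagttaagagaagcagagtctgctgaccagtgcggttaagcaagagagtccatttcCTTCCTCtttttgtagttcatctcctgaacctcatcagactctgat
C1qb: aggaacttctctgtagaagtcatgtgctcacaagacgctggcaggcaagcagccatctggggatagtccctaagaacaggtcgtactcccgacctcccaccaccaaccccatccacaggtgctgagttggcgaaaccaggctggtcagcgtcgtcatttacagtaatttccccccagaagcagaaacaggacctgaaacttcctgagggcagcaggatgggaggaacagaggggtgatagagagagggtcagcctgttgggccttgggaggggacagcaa

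The complement members were C1qa, C1qb and C1qc, the chains that assemble into C1q and lie next to one another on chromosome 4 in the RefSeq gene table. Both tested chains rose. C1qb read 522.4 and 559.8 in control and 1197 and 1128 in fluoxetine. The fluoxetine pools were both above the control pools, with no overlap, and the ratio of the geometric means was 2.15. The log2 fold change was 1.10 ± 0.08 (SE, n = 2 per group; limma adjusted p = 0.0252). Its other 2 probesets were also called, at log2 0.87 (limma adjusted p = 0.0262) and 1.15 (limma adjusted p = 0.0367). All 3 C1qb probesets therefore gave a call in the same direction.

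C1qa read 485.3 and 497.4 in control and 904.8 and 797.3 in fluoxetine. The groups did not overlap, and the log2 fold change was 0.79 ± 0.09 (SE, n = 2 per group; limma adjusted p = 0.0400). Within each array the C1qa signal relative to C1qb was lower in both fluoxetine pools, at log2 -0.27 and -0.36 from the control mean, so the chains differed between groups by unequal amounts at these probesets. C1qc was too dim to test in control, at 41.54 and 38.36, and read 111.7 and 94.78 in fluoxetine. Its groups did not overlap, and its measured log2 difference of 1.37 carries no test.

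Among the 16 immune receptor and signalling members, 6 were tested, and all 6 had log2 differences above 0. Of these, 4 were called higher, where 1.31% of all tested genes were, and 0 lower. The median log2 fold change of the 6 was 0.84. Tyrobp read 318.3 and 303.2 in control against 547.4 and 542.3 in fluoxetine. Pools of the same group nearly coincided, and the groups lay apart, with a log2 fold change of 0.81 ± 0.07 (SE, n = 2 per group; limma adjusted p = 0.0304). Fcgr3, a low-affinity receptor for immunoglobulin G that activates phagocytes, read 183.9 and 184 in control and 301.2 and 275.6 in fluoxetine. It rose by log2 0.65 ± 0.08 (SE, n = 2 per group; limma adjusted p = 0.0427), without overlap. Cd53, a leukocyte tetraspanin, read 108.1 and 122.6 in control and 220.9 and 198.5 in fluoxetine. It rose by log2 0.86 ± 0.10 (SE, n = 2 per group; limma adjusted p = 0.0427), again without overlap.

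Blnk, an adaptor that couples the tyrosine kinase Syk to phospholipase C signalling, had the largest difference of the tested members. It read 56.75 and 61.14 in control, under the minimum, and 238.9 and 331 in fluoxetine. Because both control pools were under 100, the fold is given as a bound, at least 2.81-fold higher. The fitted log2 difference, which depends on the dim control values, was 2.26 ± 0.17 (SE, n = 2 per group; limma adjusted p = 0.0262). By that fitted difference, and so by the dim control values, it ranked 6 among the 9030 tested genes. With values under 100 raised to 100, the log2 difference was 1.49. Blnk passed the intensity minimum through the fluoxetine arrays alone. Of the 18 members at or above 100 in all 4 arrays, 7 were called higher. A fit limited to such probesets called 8 of the 18 higher, where 149 of all 8675 genes were called in either direction.

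Ly86, also called MD-1, the partner of the Toll-like receptor homologue Cd180, read 359.6 and 264.6 in control and 755.5 and 603.7 in fluoxetine. The groups did not overlap, but the control pools differed by log2 0.44, the widest control gap of the tested members. Its log2 difference of 1.13 ± 0.19 (SE, n = 2 per group; limma adjusted p = 0.0692) did not pass. With spike-in centring it was 0.80 and was called (limma adjusted p = 3.46e-05). Plek, a substrate of protein kinase C in blood cells, read 148.2 and 137.1 in control and 172.8 and 179.4 in fluoxetine. Its log2 difference of 0.31 ± 0.08 (SE, n = 2 per group; limma adjusted p = 0.118) did not pass and was -0.03 with spike-in centring.

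The other 10 receptor and signalling members were too dim to test. Cd14, the coreceptor for lipopolysaccharide, read 27.54 and 27.81 in control and 60.28 and 45.39 in fluoxetine, without overlap. Fcer1g, the common chain of activating Fc receptors, read 89.66 and 88.5 in control and 142.9 and 92.17 in fluoxetine, so its log2 difference of 0.37 came mostly from fluoxetine pool 1. Fcgr2b, the inhibitory Fc receptor, stayed under 100 at all 5 of its probesets, with log2 differences from 0.02 to 1.79. The integrin chain Itgb2 (0.69) and the Toll-like receptor chaperone Unc93b1 (0.36) also had higher fluoxetine pools in log2 difference, without overlap. The phosphatase Inpp5d (0.28) did so narrowly, at 38.46 and 54.79 in control and 55.54 and 56.14 in fluoxetine. Its other probeset overlapped between groups, with a log2 difference of 0.055. Itgam, the integrin chain that pairs with Itgb2, overlapped between groups. Trem2, the lipid receptor that signals through Tyrobp, read 20.75 and 20.05 in control and 18.63 and 23.3 in fluoxetine. The groups overlapped, and at these intensities no difference was detectable. Cd48 and Cd84 read below 8 in every array, with log2 differences of 0.01.

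Of the 5 phagocyte members, 3 were tested, and all 3 had log2 differences above 0. Of these, 2 were called higher, against 1.31% of all tested genes. Ctss, the lysosomal cysteine protease cathepsin S, read 3184 and 2999 in control and 4814 and 4641 in fluoxetine. The groups lay apart, with a log2 fold change of 0.61 ± 0.07 (SE, n = 2 per group; limma adjusted p = 0.0427). Mpeg1, a pore-forming protein of the macrophage phagosome, read 157.1 and 156.6 in control and 231.2 and 246.7 in fluoxetine. Control pools were nearly equal and both fluoxetine pools were higher, by log2 0.61 ± 0.07 (SE, n = 2 per group; limma adjusted p = 0.0427). With spike-in centring these 2 calls were lost, at log2 0.28 for Ctss (limma adjusted p = 0.0718) and 0.27 for Mpeg1 (limma adjusted p = 0.0764).

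Laptm5, a lysosomal membrane protein, read 725.5 and 675.5 in control and 943.8 and 1001 in fluoxetine. Its groups did not overlap, yet its log2 difference of 0.47 ± 0.08 (SE, n = 2 per group; limma adjusted p = 0.0674) did not pass. Other Laptm5 probesets were too dim to test, with log2 differences from -0.003 to 0.41. Cd68, a lysosomal glycoprotein used to stain phagocytic cells, was under 100 throughout, at 50.99 and 53.77 in control and 95.68 and 92.02 in fluoxetine. The groups did not overlap, and the log2 difference of 0.84 was not tested. Lyz2, lysozyme, read 68.75 and 74.07 in control and 102.1 and 64.83 in fluoxetine, so that fluoxetine pool 1 was highest and pool 2 lowest of the 4.

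**Figure D2:**
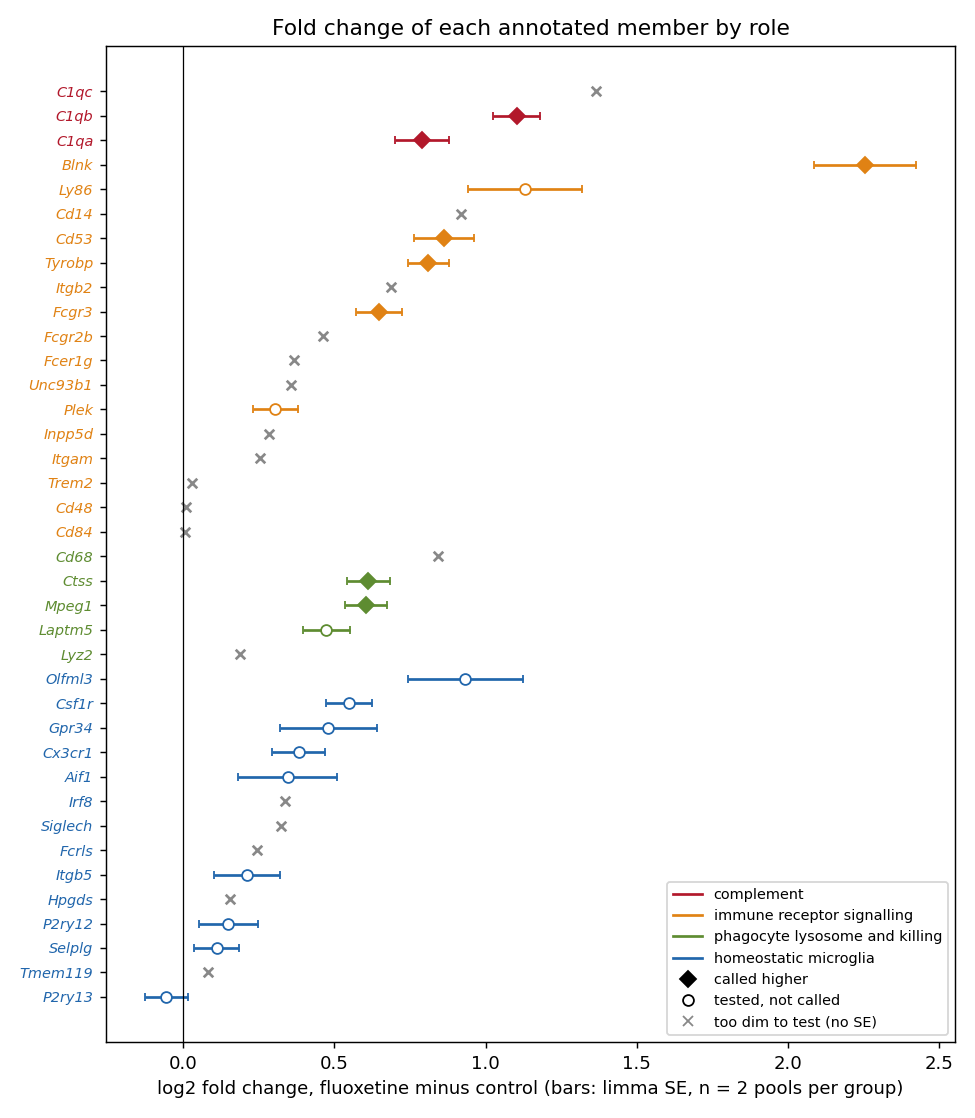
Log2 fold change, fluoxetine minus control (horizontal axis), for each of the 38 annotated members, grouped by role and coloured as in the key. Filled diamonds are called higher, open circles were tested and not called, crosses were too dim to test, and bars are limma standard errors with 2 pools per group. The 8 diamonds fall in the complement, receptor and phagocyte roles, and the 9 tested homeostatic genes are open circles from -0.06 to 0.93.

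None of the 9 tested homeostatic microglia genes was called. Both fluoxetine pools lay above both control pools for 7 of the 9, against 23.6% of all tested genes. Unadjusted p was under 0.05 for 4 in the higher direction, against 9.37%, and for 0 in the lower. The median log2 fold change was 0.35. The difference between these genes and the other roles was not tested. Csf1r came nearest to the threshold. It read 1668 and 1734 in control and 2386 and 2594 in fluoxetine, without overlap, a log2 difference of 0.55 ± 0.08 (SE, n = 2 per group; limma adjusted p = 0.0537). Its other 2 probesets gave 0.47 (limma adjusted p = 0.0811) and 0.32 (limma adjusted p = 0.181). Csf1r did pass under 6 of the alternative settings, with quantile normalization for example at a limma adjusted p of 0.0459.

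Olfml3, a secreted olfactomedin-family protein used as a microglial marker, had the largest homeostatic difference and the widest pool gap. It read 155.7 and 152.5 in control and 356.2 and 242.8 in fluoxetine. The groups did not overlap, but the fluoxetine pools differed by log2 0.55, and its log2 difference of 0.93 ± 0.19 (SE, n = 2 per group; limma adjusted p = 0.0905) did not pass. With spike-in centring it was 0.60 and was called (limma adjusted p = 0.00131). Gpr34, a lysophosphatidylserine receptor, read 144.7 and 138.5 in control and 169 and 231.2 in fluoxetine. Here fluoxetine pool 2 was the higher one, and the log2 difference was 0.48 ± 0.16 (SE, n = 2 per group; limma adjusted p = 0.183). Cx3cr1, the receptor for neuronal fractalkine, read 509 and 450.1 in control and 638.5 and 609.8 in fluoxetine. Its groups did not overlap, and its log2 difference was 0.38 ± 0.09 (SE, n = 2 per group; limma adjusted p = 0.109). A second, dimmer Cx3cr1 probeset, at or above 100 in the fluoxetine arrays alone, gave 0.62 (limma adjusted p = 0.0558).

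P2ry12, a purinergic receptor that senses ADP and directs process movement, read 425.5 and 381.1 in control and 422.3 and 473.1 in fluoxetine. The groups overlapped, and the log2 difference of 0.15 had a 95% interval of -0.10 to 0.41 (n = 2 per group; limma adjusted p = 0.418), which spike-in centring turned to -0.18. P2ry13, a related ADP receptor, read 104.6 and 99.16 in control and 100.3 and 95.78 in fluoxetine, and these groups overlapped as well. Its log2 difference was -0.06, with a 95% interval of -0.24 to 0.13 (n = 2 per group; limma adjusted p = 0.683). With spike-in centring it was called lower, at -0.39 (limma adjusted p = 0.0157), where the median of all tested genes was itself -0.36. Intervals for both receptors exclude a change as large as that of C1qb at its brightest probeset.

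Selplg, the ligand of P-selectin, read 123.3 and 124.5 in control and 139.4 and 128.4 in fluoxetine. Its log2 difference of 0.11 had a 95% interval of -0.08 to 0.31 (n = 2 per group; limma adjusted p = 0.431) and was -0.22 with spike-in centring. Aif1, which encodes Iba1, a calcium-binding protein used to stain microglia, read 152.4 and 142.3 in control and 219.2 and 159.7 in fluoxetine. Fluoxetine pool 1 set most of its log2 difference of 0.35 ± 0.16 (SE, n = 2 per group; limma adjusted p = 0.296). The 4 probesets of the integrin chain Itgb5 gave log2 differences of 0.06 to 0.36, none called, and -0.12 at the brightest with spike-in centring. Tmem119, Siglech, Fcrls, Hpgds and Irf8 were too dim to test. Tmem119, a membrane protein specific to microglia within the brain, read 45.75 and 45.64 in control and 45.63 and 51.27 in fluoxetine, with overlap. The other 4 had both fluoxetine pools higher at their brightest probesets, by log2 differences of 0.16 to 0.34. Of all named genes with no tested probeset, 37.6% did so. A second Irf8 probeset overlapped between groups, with a log2 difference of 0.04.

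Ratios within each array restate the members' unequal differences, at their brightest tested probesets, in a form that needs no scaling factor between arrays. C1qb relative to P2ry12, each set to the control mean, was at log2 1.08 and 0.83 in the fluoxetine pools and within 0.13 of 0 in the control pools. Tyrobp relative to P2ry12 was at 0.75 and 0.57 in fluoxetine, and within 0.04 of 0 in control. C1qb relative to Csf1r was at 0.66 and 0.45, with control pools within 0.02 of 0. Ctss relative to Csf1r was at 0.15 and -0.02 in fluoxetine and overlapped the control pools. These ratios are descriptions with no test of their own.

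At the level of single probesets, 28 of the 61 were tested and 10 were called higher, against 1.03% of all tested probesets, and 0 were called lower. The 10 are the 3 probesets of C1qb and 1 each of the other 7 called genes. With no intensity minimum, 37 of the 38 annotated members had a log2 difference above 0 at their brightest probeset, and both fluoxetine pools were above both control pools in 31, against 30.7% of all named genes. The median over the 38 was 0.37, and over all named genes 0.01. Among the 18 dim members, 13 had both fluoxetine pools higher, against 37.6% of the 9163 named genes with no tested probeset, and 0 had both lower, against 7.42%. Pools of a group differed by a median log2 of 0.09 in control and 0.12 in fluoxetine over the tested members.

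**Figure D3:**
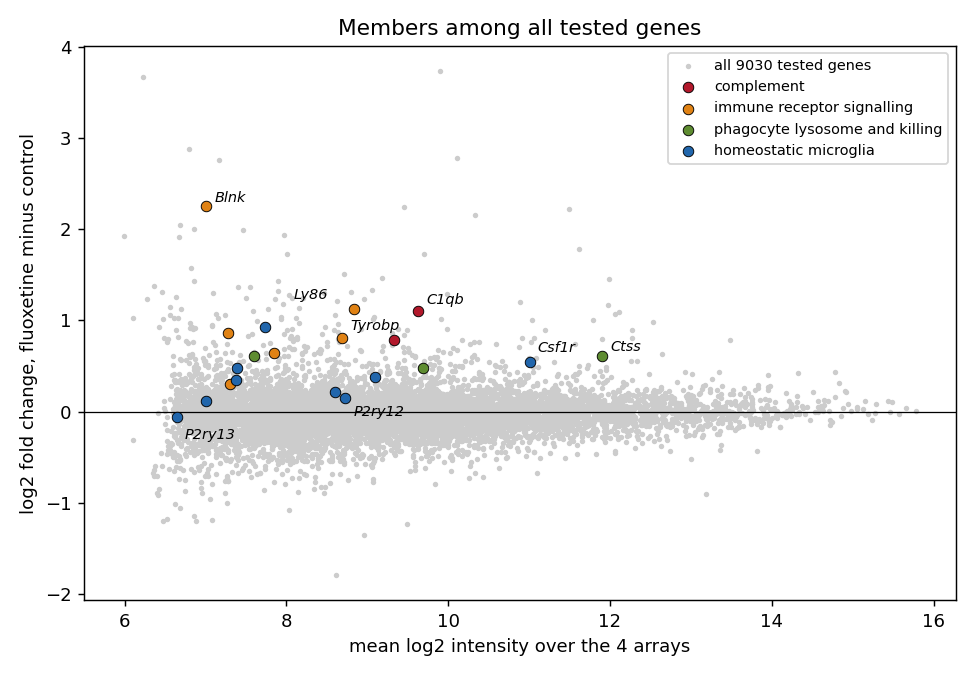
Log2 fold change, fluoxetine minus control (vertical axis), against the mean log2 intensity over the 4 arrays (horizontal axis) for all 9030 tested genes in grey, with the 20 tested members coloured by role. The members lie mostly above 0, from P2ry13 at -0.06 to Blnk at 2.26, over a wide range of intensities.

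Further genes of these pathways, which are not members, were counted from lists. For comparison, 1.31% of all tested genes were called higher and 0.554% lower. Of 7 tested complement components, receptors and regulators, 1 was called higher and 0 lower, with a median log2 fold change of 0.16. The called gene was Cd93, a receptor of endothelial and myeloid cells first described as a C1q receptor. It read 47.66 and 57.81 in control and 214.6 and 182.8 in fluoxetine, at least 1.98-fold higher (limma adjusted p = 0.0252). Like Blnk, it passed the intensity minimum through the fluoxetine arrays alone. Masp1, a protease of the lectin pathway, had a log2 difference of 0.94 (limma adjusted p = 0.0546), and Cd59a, an inhibitor of the terminal pathway, 0.23 (limma adjusted p = 0.444). Most of this list was dim, with 12 of its 20 annotated genes under 100 in all arrays.

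Signals on which microglia depend had a median of -0.03 over 12 tested genes, of which 1 was called higher and 0 lower. Tgfbr2, a receptor chain for transforming growth factor beta, read 290.6 and 296.4 in control and 597.6 and 486.8 in fluoxetine, a rise of log2 0.88 ± 0.12 (SE, n = 2 per group; limma adjusted p = 0.0486). Its partner Tgfbr1 had a log2 difference of -0.13, and Csf2ra -0.21, neither called. Csf1, a ligand of Csf1r, had a difference of -0.04 and Cx3cl1, the ligand of Cx3cr1, of 0.01, neither called; these 2 were chosen after their values were seen.

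Of 6 tested genes on a list of other microglia genes, 1 was called higher and 1 lower. Rgs10, a regulator of G protein signalling, read 343.5 and 328.2 in control and 488.1 and 493.7 in fluoxetine, a rise of log2 0.55 ± 0.07 (SE, n = 2 per group; limma adjusted p = 0.0448). Mertk, a receptor tyrosine kinase with which microglia and astrocytes engulf debris, read 632.5 and 588.7 in control and 405.8 and 413.2 in fluoxetine. It went the other way from the called members, with both fluoxetine pools lower, and fell by 0.58 on the log2 scale (SE 0.07, n = 2 per group; limma adjusted p = 0.0460). Rnase4 had a log2 difference of 0.39 (limma adjusted p = 0.163).

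Among 10 tested activation genes, which rise in microglia around plaques or injury, 1 was called higher and 0 lower, with a median of 0.30. Cd9, a tetraspanin, read 982.3 and 981.5 in control and 1783 and 1559 in fluoxetine, a rise of log2 0.76 ± 0.09 (SE, n = 2 per group; limma adjusted p = 0.0427). Ctsh, the lysosomal protease cathepsin H, had a log2 difference of 1.00 (limma adjusted p = 0.0601) and B2m, the light chain of class I antigen presentation, 0.51 (limma adjusted p = 0.0581). Itgax, Cst7, Clec7a and Gpnmb, used as markers of the activated state, read below 10 in every array. Of 20 inflammatory cytokines and sensors, 15 were under 100 in all arrays, and none of the 4 tested was called. Ptgs2, the inducible cyclooxygenase, had the largest difference of these at log2 1.31 (limma adjusted p = 0.0675), and Il1b, Tnf and Il6 read below 10 throughout.

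Markers of other cells that hold some of the members' transcripts were compared as lists. All 11 annotated border macrophage and monocyte markers were under 100 in every array, and their summed intensity was 153 to 161 in control and 144 to 164 in fluoxetine. The highest was Mrc1, at 36.98 to 50.71, and Ccr2, a monocyte receptor, read about 8. All 14 lymphocyte and granulocyte markers were under 11, with sums of 72.1 to 73.1 in control and 72.8 to 74.7 in fluoxetine. The 3 red cell markers read at most 8.24. The members themselves summed to 10560 and 10200 in control and 16130 and 15770 in fluoxetine.

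Some astrocyte and vascular markers were higher in the same arrays as the members. Of 15 tested astrocyte markers 2 were called higher, against 1.31% of all tested genes, and 0 lower. They were Gfap at log2 2.78 (limma adjusted p = 0.0172) and Aqp4 at 1.07 (limma adjusted p = 0.0262). Fgfr3 had the next largest difference in size, at log2 -0.44 (limma adjusted p = 0.110), and 10 of the 15 were above 0. The list median was 0.12, with sums of 82300 to 84330 in control and 90750 to 94380 in fluoxetine. Of 10 tested endothelial and mural markers 2 were called higher, against the same 1.31%, and 0 lower. They were Rgs5 at log2 0.59 (limma adjusted p = 0.0380) and Abcc9 at 0.53 (limma adjusted p = 0.0495). That list had a median of 0.32 and sums of 4747 to 4791 in control against 6041 to 6163 in fluoxetine. No oligodendrocyte or neuron marker was called, and their medians were 0.00 and -0.03. No choroid plexus marker was called, with Ttr reading 37860 in control pool 1, 2002 in control pool 2, 51100 in fluoxetine pool 1 and 4429 in fluoxetine pool 2. The part of these cells in the members' results was not tested.

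**Figure D4:**
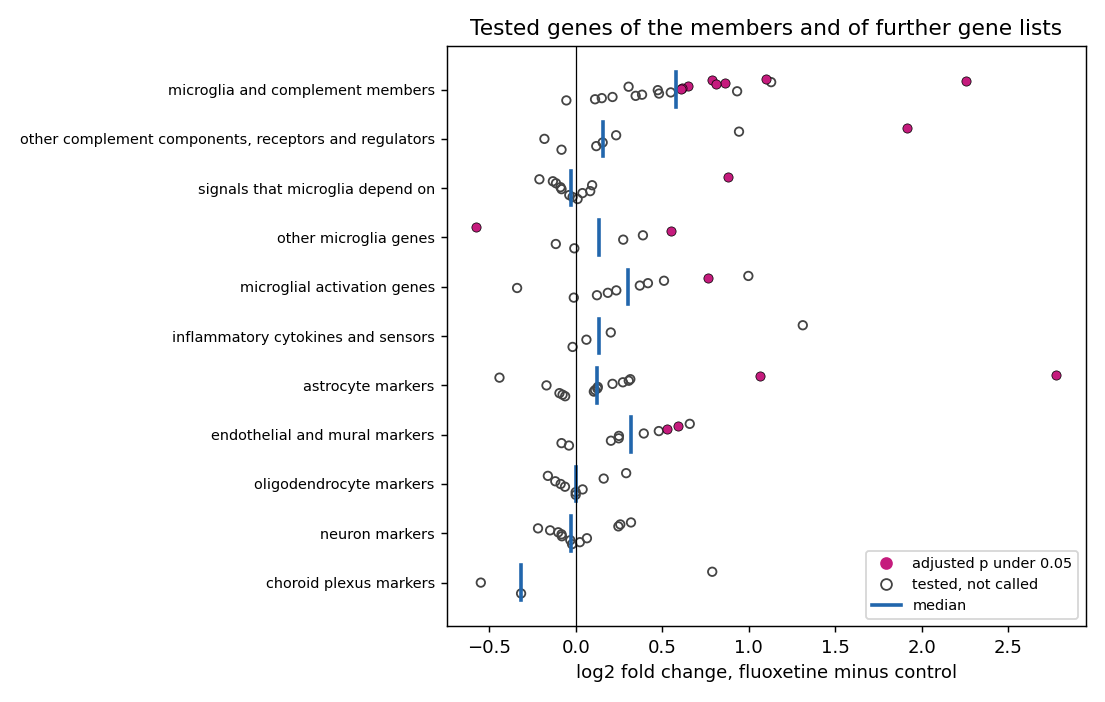
Log2 fold change, fluoxetine minus control (horizontal axis), of every tested gene in the member set and in each further list that had tested genes (vertical axis). Filled points have a limma adjusted p under 0.05, open points were tested and not called, and blue bars are list medians. The member median is 0.58, and those of the neuron and oligodendrocyte markers are near 0.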

How the data were processed

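RNA from 4 pools of hippocampus, 2 control and 2 fluoxetine, was measured on 1 array each. The deposited values are linear intensities per probeset. Per the labels, the authors used GCRMA within the ArrayAssist program to normalize them, with no version stated. GCRMA corrects background by probe sequence and compresses dim values. Here the intensities were taken to log2 with no pseudocount. The 64 Affymetrix controls were left out, and 34958 probesets had 1 symbol, 932 several and 9211 none in the platform annotation.

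Groups came from the sample titles. They were compared with limma 3.58.1 (R 4.3.3; lmFit, eBayes, no covariate), two-sided. Group means are geometric, SE is limma's, and a bound is the brighter mean over 100. The procedure was tested on simulated data. The number of arrays limits the precision.

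The rule for named genes gives values for called members and for the 4 largest differences in each role, and up to 3 tested genes per further list. A few others were chosen after their values were seen. Members, lists and alternatives were chosen with earlier results of these data known. The alternatives were other intensity minimums, normalizations, a pseudocount of 32, other ways to use probesets, other variance settings, pool number as a block, and each array left out. Pools share a number across groups, but no label says that a number marks a shared batch, so pools were treated as unpaired.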

Additional observations from a re-analysis of the deposited data

How the results depend on the processing

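The 8 members called higher all kept their direction under every alternative run. The same 8 stayed called with a geometric mean of at least 100, a floor of 100 and without probesets ending in _x_at or _s_at. Quantile normalization and median centring called 10 members, a pseudocount of 32 called 9, and trended robust eBayes and the mean of a gene's probesets called 11 each, the 8 always among them. Requiring 100 in all 4 arrays gave 8, with Csf1r in place of Blnk. Spike-in centring called 5891 of all 9030 tested genes. It gave 8 members higher, with Ly86 and Olfml3 in place of Ctss and Mpeg1, and 1 lower, P2ry13. It took the phagocyte calls from 2 to 0 and turned P2ry12 to -0.18, Itgb5 to -0.12, Plek to -0.03 and Selplg to -0.22.

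No intensity minimum, a minimum of 50, the pool number as a replicate block and each array left out all gave 0 called members, 0 called probesets, against 10 as reported, and 0 in each role, against 2 complement, 4 receptor and 2 phagocyte genes as reported. Over all tested genes these settings called 0, 14, 8 and, for each array left out, 0. The replicate block gave the 8 genes limma adjusted p of 0.0809 to 0.114. The pool 1 minus pool 2 differences of the groups correlated at 0.14 over the tested probesets, with 2 pairs only. Without an array, counts of calls ranged from 0 to 0 and the member median from 0.57 to 0.60. The 2-fold rule gave 3 members, 4 probesets, 1 complement, 2 receptor and 0 phagocyte genes.

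Homeostatic calls, 0 otherwise, were 1 with 100 in all 4 arrays, quantile normalization, median centring, spike-in centring, a pseudocount of 32 and trended robust eBayes, and 2 with the mean of a gene's probesets. The member median of 0.58 was 0.37 with no minimum, 0.48 with a minimum of 50, 0.59 with median centring, 0.24 with spike-in centring (all tested genes -0.36), 0.53 with a pseudocount, 0.61 without _x_at and _s_at probesets and 0.55 with probeset means. The causes of these differences were not tested. Members under 100 lie where GCRMA compresses values, so depth of signal limits what 18 of them can show.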

Other observations

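Several activation and immune genes outside the member set were higher in 1 fluoxetine pool than in the other 3 arrays, at intensities mostly under 100 and without a test. They were chosen after their values were seen. Lgals3, the lectin galectin-3, read 6.80 and 5.47 in control and 45.78 and 14 in fluoxetine. Socs3, a feedback inhibitor of cytokine signalling, read 14.43 and 16.97 in control and 114.8 and 17.48 in fluoxetine. Ccl12, a chemokine, read 5.79 and 5.72 in control and 23.15 and 5.81 in fluoxetine. Lgals3bp read 37.26 and 35.06 in control and 101.1 and 43.52 in fluoxetine, and Serping1, the inhibitor of the first complement component, 78.55 and 94.04 against 152.5 and 98.87. In each of these genes fluoxetine pool 1 was the highest array. Fluoxetine pool 2 also lay above both control pools, at 14 against 6.80 and 5.47 in Lgals3 and narrowly in Socs3 and Ccl12. Over the tested members, fluoxetine pool 1 was above pool 2 in 13 of 20, and over all tested genes in 54.1%. Control pool 1 was above control pool 2 in 13 of 20 members as well, and in 55.4% of all tested genes.

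Of the 31 annotated genes on the list of other microglia genes, 14 had both fluoxetine pools above both control pools at any intensity. The share was 30.7% of all named genes, but 37.6% of named genes with no tested probeset, as 25 of the 31 were. The count is therefore not read as a result about this list. Among the 25 that were under 100 throughout, log2 differences ran from -0.05 to 1.57, and the 2 largest were those of the surface proteins Cd52 and Ptprc. Cd52 read 23.46 and 12.16 in control and 64.33 and 39.11 in fluoxetine, and Ptprc 27.25 and 17.02 against 59.71 and 51.82.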
